A study of Sus scrofa with 16 samples.

Results

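The immediate-early transcription factors studied here are 10 genes, *FOS*, *FOSB*, *JUN*, *JUNB*, *EGR1*, *ATF3*, *NR4A1*, *NR4A3*, *MYC* and *KLF4*. They were chosen by symbol, and all 10 had an entry among the 22629 genes of the tables, 8 by symbol and 2 (*JUN* and *KLF4*) by Ensembl gene ID. RNA came from left ventricular myocardium of 8 White Yorkshire-Landrace pigs operated on at 30 days of age and studied 4 weeks later. In 4 IR pigs the left anterior descending artery (LAD) was occluded for 1 h and then reperfused, and 4 sham pigs had the operation without occlusion. The study's methods name heparin for the IR pigs before the occlusion, so an effect of heparin and one of ischemia and reperfusion cannot be told apart. Each pig gave a scar zone sample and a border zone sample from the muscle next to it, which made 16 libraries. Both surgery groups had 2 female and 2 male pigs. The IR scar zone piece came from below the occlusion site and held viable myocardium along with scar. For the sham scar zone piece the study's text gives both the occlusion site itself and the muscle just below it, so a difference in position between the surgery groups cannot be told apart from the surgery. All pigs shared the opened chest, the anesthesia and the dissection of the heart. The time from euthanasia to freezing and the order in which the zones were taken are not given in the sources used here.

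Immediate-early genes are switched on within minutes of a stimulus by factors already present in the cell, such as SRF and CREB, and their messages are short-lived. FOS and FOSB pair with JUN and JUNB to form AP-1, EGR1 is a zinc finger factor, ATF3 is a stress-induced bZIP factor, NR4A1 and NR4A3 are orphan nuclear receptors, and MYC and KLF4 act on growth and differentiation. In the heart they are known to respond to stretch, adrenergic drive and ischemia, and also to the handling of tissue at collection, so both zones of each animal were compared.

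Libraries held 15427663 to 49045206 estimated counts. Taken as the floor, 3 counts correspond to 0.0693 to 0.204 CPM (counts scaled to library size by TMM). The deepest libraries were those of IR pigs 9 and 11, both males, at 33521418 to 49045206 estimated counts. All other libraries held 15427663 to 27088652. Pigs 9 and 11 were also the highest for *FOS* and *EGR1* in the scar zone. The part of sequencing depth in their values was not tested. All 9 cardiomyocyte markers with an entry were above 0 in all 16 libraries, so the tissue label held. The scar zone library of pig 14, a female, had 4.47 CPM of the Y-linked *DDX3Y*. Its level was 0.399 to 1.21 CPM in 7 further libraries of females, and in those of males it was 68.3 to 103 CPM. *KDM5D*, also Y-linked, was at 0.409 CPM in this pig 14 library, at 0 in the 7 further ones and at 4.27 to 10.1 CPM in males. The source of these Y-linked reads was not tested. The leading test values, the scar zone list counts, the variance shares and the standardised means are also given without pig 14, in part as a choice made after seeing the data. In tissue RNA, fewer cells of a type and less RNA per cell cannot be told apart.

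The 10 genes differed widely in level. On the TPM scale, which is per transcript length, the medians over the 16 libraries were 153 for *JUN*, 37.4 for *ATF3*, 21.4 for *NR4A1*, 13.4 for *KLF4*, 10.8 for *MYC*, 10.1 for *EGR1*, 4.195 for *NR4A3*, 3.784 for *FOS* and 0.759 for *FOSB*. *JUN* was above *ATF3* in 14 of the 16 libraries, *ATF3* above *NR4A1* in 14, *NR4A1* above *KLF4* in 15, *EGR1* above *NR4A3* in 13 and *FOS* above *FOSB* in 15. Neighbours that did not separate were *KLF4* and *MYC* (*KLF4* higher in 9 of 16), *MYC* and *EGR1* (9 of 16), and *NR4A3* and *FOS* (8 of 16). *FOSB* was measured with 2 to 1121 estimated counts, so its low values carry large counting error.

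*JUNB*, an AP-1 partner of FOS, was listed at 0 in 15 of 16 libraries and at 153 estimated counts (4.59 CPM, 6.93 TPM) in the scar zone of IR pig 11. It was the 1 gene of the tables with more than 100 estimated counts in a single library and 0 in all other 15. All 16 housekeeping genes with an entry were above 0 in every library. Since a 0 in a table of estimates can be a failed estimate, the *JUNB* zeros are not read as absence, and the gene did not pass the low-count filter of the tests.

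*FOS* and *FOSB*, the inducible partners within AP-1, were highest in the scar zone of an IR pig, and 2 sham pigs, pig 5 in the scar zone and pig 13 in the border zone, lay within the range of the IR scar zone. *FOS* was at 11.1, 59.7, 367 and 17.6 CPM in the scar zone of IR pigs 2, 9, 11 and 14, and at 4.11, 25.3, 4.41 and 6.32 CPM in that of sham pigs 4, 5, 12 and 13. In the border zone of the same pigs *FOS* was at 8.12, 6.89, 25.6 and 8.35 CPM (IR) and 6.28, 7.17, 7.19 and 17.4 CPM (sham). IR pigs 9 and 11, both males, lay above all sham pigs in the scar zone, sham pig 5 lay above IR pigs 2 and 14, and the groups overlapped in both zones. *FOSB* was at 0.69, 3.22, 33.5 and 1.09 CPM in the IR scar zone and at 0.32, 9.58, 0.33 and 0.08 CPM in the sham scar zone. Border zone levels of *FOSB* were 0.14 to 0.99 CPM in IR pigs and 0.10 to 0.93 CPM in sham pigs. The same 2 animals, IR pig 11 and sham pig 5, thus held the highest scar zone *FOSB* of their groups.

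*EGR1*, an immediate target of growth factor and stretch signals, ranked the scar zone libraries of each surgery group in the order of *FOS*. It was at 24.1, 60.3, 244 and 34.1 CPM in the scar zone of IR pigs 2, 9, 11 and 14 and at 12.8, 50.8, 19.0 and 24.4 CPM in that of sham pigs 4, 5, 12 and 13. In the border zone it was at 18.8, 22.9, 38.8 and 28.4 CPM in IR pigs and 14.01, 17.4, 24.7 and 30.2 CPM in sham pigs. In the scar zone IR pigs 9 and 11 again lay above all sham pigs, and next to it pig 11 alone did.

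**Figure D1:**
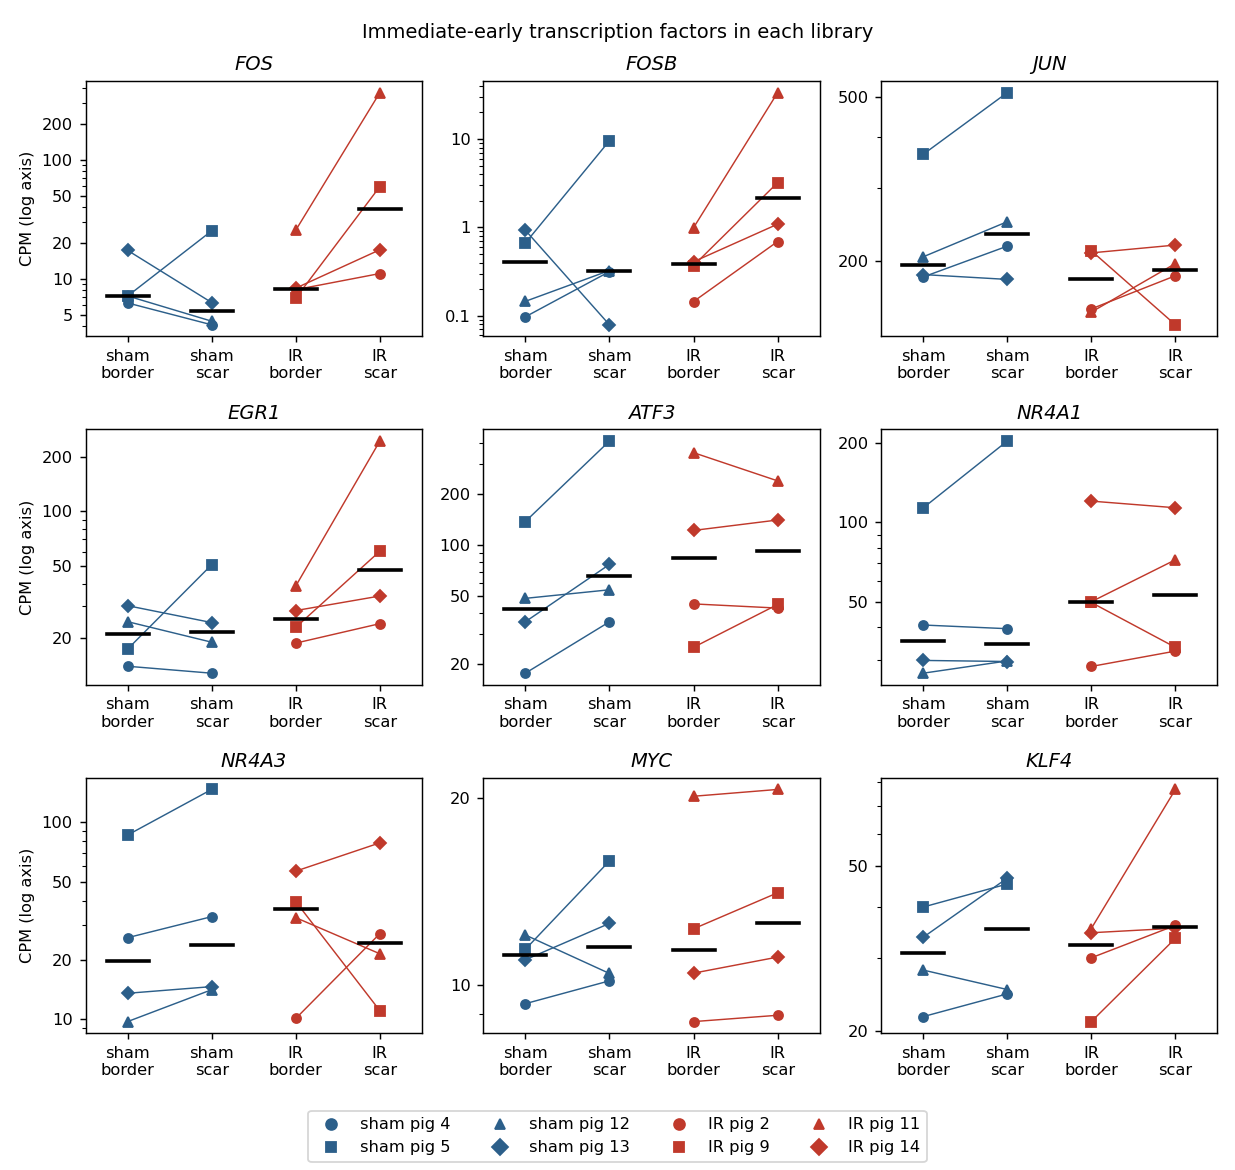
CPM on a log axis (y) of 9 immediate-early genes in the 4 groups (x), 1 point per library, with the 2 zones of a pig joined and the group median as a black bar. *FOS*, *FOSB* and *EGR1* are highest in the scar zone of IR pig 11, and *JUN*, *ATF3*, *NR4A1* and *NR4A3* in that of sham pig 5, while IR and sham values overlap for each gene.

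*JUN*, a partner of FOS in AP-1, was at 184, 140, 197 and 218 CPM in the IR scar zone and 217, 512, 249 and 180 CPM in the sham scar zone. Border zone levels were 153, 211, 150 and 209 CPM in IR pigs and 183, 362, 204 and 185 CPM in sham pigs. Sham pig 5 stood above all other pigs in both zones, and the other libraries lay between 140 and 249 CPM. *ATF3*, induced by many kinds of cell stress, was at 42.7, 44.9, 240 and 141 CPM in the IR scar zone and at 35.5, 412, 54.8 and 77.2 CPM in the sham scar zone. In the border zone it was at 45.2, 25.1, 352 and 123 CPM in IR pigs and 17.7, 138, 48.8 and 35.5 CPM in sham pigs. IR pigs 11 and 14 and sham pig 5 were thus high for *ATF3* in both of their zones.

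The nuclear receptors set apart a partly different group of animals. *NR4A1* was at 32.5, 33.6, 72.2 and 114 CPM in the IR scar zone and at 39.5, 204, 29.8 and 29.7 CPM in the sham scar zone. Border zone *NR4A1* was at 28.4, 49.7, 50.0 and 121 CPM in IR pigs and 40.8, 114, 26.8 and 29.97 CPM in sham pigs. IR pig 14 and sham pig 5 were the highest of their groups in each zone. *NR4A3* was at 27.2, 11.03, 21.5 and 78.7 CPM in the IR scar zone and 33.2, 147, 14.1 and 14.6 CPM in the sham scar zone. Border zone *NR4A3* was at 10.1, 39.5, 32.8 and 56.5 CPM in IR pigs and 25.9, 86.2, 9.71 and 13.5 CPM in sham pigs. The same pigs 14 and 5 led again, whereas IR pig 11, the highest for *FOS*, was at 0.790 times the median of the other 3 IR scar zone libraries for *NR4A3*.

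*MYC* and *KLF4* varied least along with *JUN*. *MYC*, a driver of growth, ranged from 8.95 to 20.6 CPM in the IR scar zone, 10.2 to 15.8 CPM in the sham scar zone, 8.74 to 20.1 CPM in the IR border zone and 9.34 to 12.04 CPM in the sham border zone, with pig 11 highest in both IR zones. *KLF4*, a zinc finger factor known from vascular cells, ranged from 33.5 to 76.7, 24.6 to 46.8, 21.1 to 35.4 and 21.7 to 39.9 CPM in these 4 groups. Across all libraries the highest value was 2.36 times the lowest for *MYC*, 3.63 times for *KLF4*, 3.66 times for *JUN*, 7.60 times for *NR4A1*, 15.1 times for *NR4A3*, 19.0 times for *EGR1*, 23.3 times for *ATF3*, 89.3 times for *FOS* and 424 times for *FOSB*, whose lowest value rests on few counts. Leaving *JUNB* aside, the scar zone of IR pig 11 held the highest value of 5 of the 9 genes (*FOS*, *FOSB*, *EGR1*, *MYC* and *KLF4*), and the scar zone of sham pig 5 that of the other 4 (*JUN*, *ATF3*, *NR4A1* and *NR4A3*).

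Whether a past ischemia leaves these genes at another level was asked first in the scar zone. *FOS* had a log2 fold change of 3.49 ± 1.14 (SE, 4 IR against 4 sham pigs), with an adjusted p of 0.438 in edgeR's quasi-likelihood test (Benjamini-Hochberg, 14023 genes). *EGR1* had a log2 fold change of 1.75 ± 0.72 and *FOSB* of 1.91 ± 1.49, with edgeR adjusted p of 0.438 and 0.594. *JUN* was at -0.66 ± 0.31, *ATF3* at -0.32 ± 0.82, *NR4A1* at -0.28 ± 0.68, *NR4A3* at -0.62 ± 0.82, *MYC* at 0.16 ± 0.26 and *KLF4* at 0.35 ± 0.32, with edgeR adjusted p between 0.454 and 0.876. Of the 9 genes tested, 0 passed the adjusted threshold of 0.05 with a fold change of at least 2, and 0% of all genes did. At the unadjusted p, 2 of 9 passed (*FOS* and *EGR1*), against 3.35% of all genes. Both lost this call with 1 factor of unwanted variation, where *FOS* was at 2.06 ± 1.06, *EGR1* at 1.13 ± 0.64 and *FOSB* at 0.46 ± 1.91, and with sex as a covariate, where *FOS* was at 2.63 ± 1.45 and *EGR1* at 1.35 ± 0.78. DESeq2 called 0 of the 8 genes to which it gave a p-value, all but *FOSB*, with an adjusted p of 0.142 for *FOS*, and called 52 genes of the whole table. Of the 9 genes, 5 had a positive log2 fold change, with a median of 0.16 beside 0.03 over all genes tested. None of the 9 separated the IR from the sham libraries without overlap, which 4.84% of all genes tested did, and in the border zone none of them did, against 2.03%.

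Leaving out single animals moved these values. Without IR pig 11 the scar zone log2 fold change of *FOS* was 1.56, that of *EGR1* 0.56 and that of *FOSB* -0.57. Without sham pig 5 *FOS* was at 4.51, and *ATF3*, *NR4A1* and *NR4A3* turned to 1.06, 0.92 and 0.72. Without pig 14 *FOS* was at 3.85 and *EGR1* at 2.02. *FOS* lost the unadjusted call without pig 11, and *EGR1* lost it without pig 11 and without sham pig 4 (1.51), 12 (1.60) or 13 (1.70), while *FOSB* gained it without sham pig 5, at 5.30. In that fit the scar zone of sham pigs 4, 12 and 13 held 7, 9 and 2 estimated counts of *FOSB*. The gene thus passed the low-count filter through the IR libraries. Fibroblast markers were highest in the same 2 IR scar zone libraries as *FOS*, those of pigs 9 and 11. Their 8 genes summed to 5932, 24398, 33176 and 4753 CPM in IR pigs 2, 9, 11 and 14, against 5596 to 7433 CPM in the sham scar zone and 5219 to 7862 CPM in the IR border zone. Pig 14, above pig 2 for *FOS*, was thus below it here. Sham pigs 5 and 4, the highest and lowest of the sham scar zone for *FOS*, were at 7433 and 7404 CPM. All 8 fibroblast markers had a positive log2 fold change in the scar zone (median 0.90, 0 of 8 past the edgeR adjusted threshold and 3 of 8 at the unadjusted p, *COL1A1*, *POSTN* and *COL1A2*), and none was at 0 in any library. The 11 leucocyte markers with an entry, none at 0 in any library, summed to 162 to 320 CPM in the IR scar zone, highest in pig 11, and to 125 to 236 CPM in the sham scar zone, where pig 5 was lowest. All 9 leucocyte markers tested had a positive log2 fold change (median 0.36), with 0 past the adjusted threshold and 1 at the unadjusted p, *S100A12*. That gene was low, with a median of 0.098 TPM over the libraries, and it was not tested in the border zone. Without pig 14 the fibroblast markers passing at the unadjusted p were 4 of 8 (median 1.14), *COL3A1* in addition, and the leucocyte markers 2 of 10 (median 0.41), *CD68* and *S100A9* in place of *S100A12*. *S100A9* was also low, with a median of 0.203 TPM. Of all genes tested, 5.8% passed in that fit, against 3.35% with pig 14. Cardiomyocyte markers summed to 61332 to 87808 CPM in the IR and 75845 to 103630 CPM in the sham scar zone. The part of the cell makeup in the *FOS* and *EGR1* values was not tested.

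**Figure D2:**
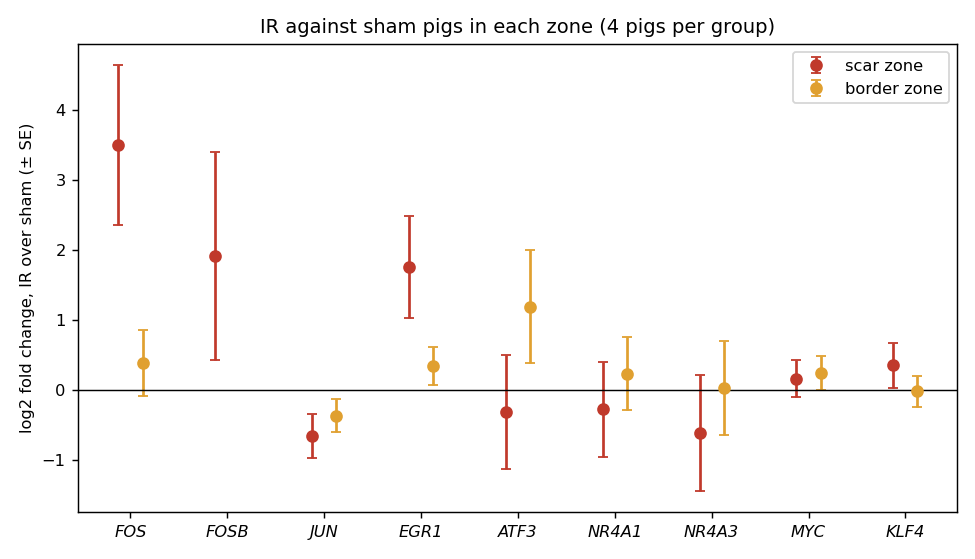
Log2 fold change of IR over sham (y, ± SE, 4 pigs per group) for 9 immediate-early genes (x) in the scar zone (red) and, for the 8 genes tested there, in the border zone (yellow). *FOS* at 3.49 and *EGR1* at 1.75 in the scar zone stand farthest from 0 relative to their SE, and 0 genes passed the adjusted threshold in either zone.

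In the border zone *FOS* and *EGR1* lay nearer to 0 than in the scar zone, and *ATF3* lay farther from it. *ATF3* had a log2 fold change of 1.18 ± 0.81, *FOS* of 0.38 ± 0.47, *EGR1* of 0.34 ± 0.27, *MYC* of 0.25 ± 0.24, *NR4A1* of 0.23 ± 0.52, *NR4A3* of 0.03 ± 0.67, *KLF4* of -0.03 ± 0.22 and *JUN* of -0.37 ± 0.24. *FOSB* was too low to be tested there. Of 8 genes tested, 0 passed the adjusted or the unadjusted threshold, where 0% and 0.794% of 13728 genes did, and edgeR adjusted p were 0.988 to 0.997. DESeq2 called 0 of the 8 and 2 genes in the whole table. Without IR pig 11 *ATF3* was at 0.09 and *FOS* at -0.29, and without sham pig 5 *ATF3* was at 2.00 and past the unadjusted p and the fold threshold (edgeR adjusted p of 0.999). *NR4A1* and *NR4A3* were at 0.93 and 1.08 without pig 5 and at -0.31 and -0.31 without IR pig 14, and *FOS* at 0.84 without sham pig 13.

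Both zones of each animal were then set against each other. *FOS* was higher in the scar zone than next to it in 4 of 4 IR pigs, by 1.37, 8.66, 14.3 and 2.10 times in pigs 2, 9, 11 and 14. In sham pigs 4, 5, 12 and 13 the scar zone held 0.655, 3.53, 0.614 and 0.364 times the border zone level, so 1 of 4 was higher. *EGR1* showed the same split, with 1.28, 2.63, 6.29 and 1.20 times in IR pigs and 1 of 4 sham pigs higher. *FOSB* and *KLF4* were higher in the scar zone in 4 of 4 IR pigs and 3 of 4 sham pigs, as was *MYC*. Some of these differences are near ties. In IR pigs 2, 9, 11 and 14 *MYC* was at 1.02, 1.14, 1.03 and 1.06 times and *KLF4* at 1.20, 1.59, 2.17 and 1.03 times. *FOSB* had only 2 to 3 estimated counts in the border zone of pigs 2, 4 and 12 and in the scar zone of pig 13. *ATF3* went another way: it was higher in the scar zone of 4 of 4 sham pigs, by 2.01, 2.98, 1.12 and 2.18 times, and of 2 of 4 IR pigs. *NR4A3* was likewise higher in 4 of 4 sham pigs and 2 of 4 IR pigs. The share of all genes higher in 4 of 4 pigs of a surgery group was not counted.

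**Figure D3:**
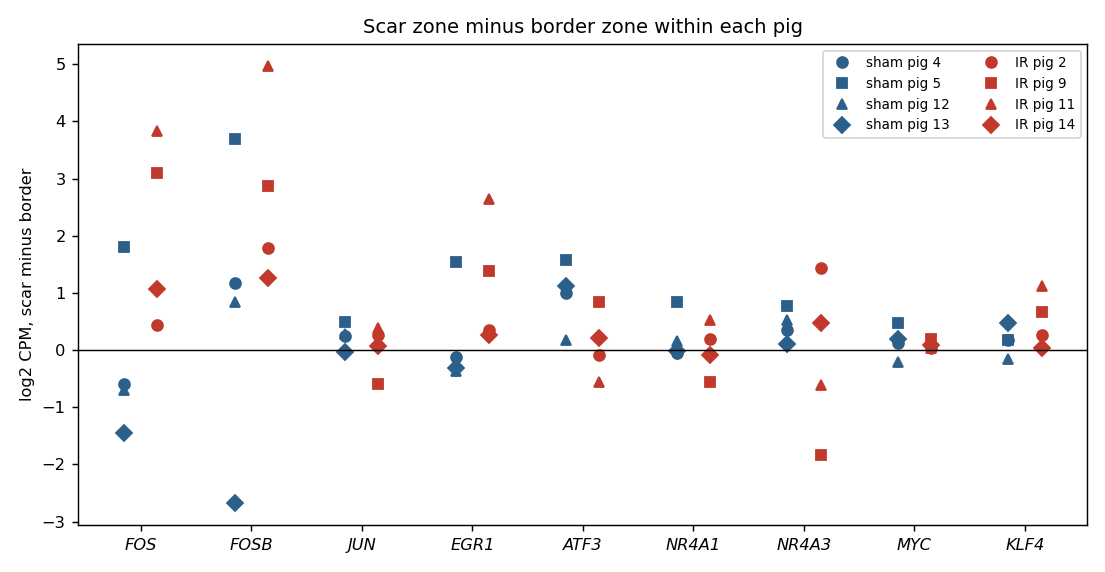
Scar zone minus border zone log2 CPM (y) for 9 immediate-early genes (x), 1 point per pig, with sham pigs in blue and IR pigs in red. All 4 IR pigs are above 0 for *FOS*, *FOSB*, *EGR1*, *KLF4* and *MYC*, which is at only 0.03 to 0.19. All 4 sham pigs are above 0 for *ATF3* and *NR4A3*.

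In the IR pigs, the log2 fold change of scar over border was 3.21 ± 1.07 for *FOS*, 4.25 ± 1.26 for *FOSB*, 1.74 ± 0.67 for *EGR1* and 0.59 ± 0.29 for *KLF4*, with edgeR adjusted p of 0.989 for each. With the pig as a block, which pairs the zones of an animal, these values were 2.23 ± 0.61, 3.60 ± 0.63, 1.18 ± 0.40 and 0.53 ± 0.18, with edgeR adjusted p of 0.431 for each. Of the 9 genes, 0 passed the adjusted threshold in either fit, where 0% of 14170 genes did. At the unadjusted p, 3 of 9 passed in both fits (*FOS*, *FOSB* and *EGR1*), against 1.76% of all genes without and 1.64% with the block. *FOSB* did not pass the low-count filter among the border zone or the sham libraries. It entered these fits through the IR scar zone libraries, where it was high, so its place among the 3 is no separate support. *KLF4* was under the unadjusted p with the block at a smaller fold change. Without pig 11 the blocked values were 1.57 for *FOS*, 2.37 for *FOSB* and 0.69 for *EGR1*. Without pig 14 the values without the block were 3.40 for *FOS*, 4.52 for *FOSB*, 2.00 for *EGR1* and 0.74 for *KLF4*, and with the block 2.59, 4.07, 1.48 and 0.67. In the fit without the block *EGR1* lost the unadjusted call without pig 9 (1.81) or pig 11 (0.77). DESeq2 called 0 of the 8 to which it gave a p-value, all but *FOSB*, and 4 genes in the whole table. The 8 fibroblast markers were also higher in the scar zone of the IR pigs, with 8 of 8 positive and a median log2 fold change of 0.98 (0.69 with the block), and in the sham pigs 6 of 8 were positive with a median of 0.08. Leucocyte markers were positive in 9 of 9 (median 0.50, and 0.46 with the block) in the IR pigs and 5 of 8 (0.05) in the sham pigs, and cardiomyocyte markers in 0 of 9 (-0.20, and -0.21 with the block) and 4 of 9 (-0.02). The part of these cell types in the zone differences was not tested.

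In the sham pigs, where the artery had not been occluded, *ATF3* had the largest log2 fold change of scar over border among the 8 genes tested, 1.28 ± 0.82, and 0.98 ± 0.19 with the block (edgeR adjusted p of 1.00 and 0.804). *NR4A3* was at 0.63 ± 0.86 and, with the block, 0.46 ± 0.11 (edgeR adjusted p of 0.931 with the block), while *FOS* was at 0.08 ± 0.59 and -0.23 ± 0.44. Of these 8 genes, 0 passed the adjusted threshold, or the unadjusted p with a fold change of at least 2, in either fit. With the block *ATF3*, *NR4A3* and *JUN* were under the unadjusted p at smaller fold changes, as were 659 genes of any fold in the whole table. The share of all 13803 genes was 0% adjusted in both fits, and 0.101% unadjusted without and 0.203% with the block. DESeq2 called 1 gene in the whole table and 0 of the 6 genes to which it gave a p-value, all but *FOS* and *NR4A1*. Without sham pig 5 the values without the block were 0.71 for *ATF3*, 0.32 for *NR4A3*, 0.0155 for *NR4A1* and -1.06 for *FOS*, which was then past the unadjusted p and the fold threshold.

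Over all 8 pigs the 9 genes had positive zone differences, with a median log2 fold change of 0.40 beside 0.01 for all genes tested. *FOSB* was at 3.43 ± 1.03 and, with the block, 2.64 ± 0.75 (edgeR adjusted p of 0.997 and 0.397). No member passed the adjusted threshold, where 0% of 14278 genes did without and 0.014% with the block. At the unadjusted p, 2 of 9 passed without the block (*FOSB* and *EGR1*) and 1 of 9 with it (*FOSB*), against 0.511% and 0.371% of all genes. *FOSB* was too low to be tested among the border zone or the sham libraries alone. DESeq2 called 0 genes here. Without 1 pig each, *FOSB* ranged from 2.46 (without IR pig 11) to 3.98 (without sham pig 13). Without pig 14 *FOSB* was at 3.45 (2.81 with the block) and *EGR1* at 1.04, and *EGR1* no longer passed at the unadjusted p with a fold change of at least 2, as was also so without IR pig 2, 9 or 11 or sham pig 5 (0.50 to 1.00). *FOS* passed it without sham pig 4, 12 or 13, at 1.98 to 2.20.

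The difference of the IR effect between the zones was tested in 1 fit over all 16 libraries. For *FOS* the scar zone effect exceeded the border zone effect by 3.13 ± 1.29 on the log2 scale, and by 2.50 ± 0.89 with the block (edgeR adjusted p of 1.00 and 0.702). For *ATF3* the difference was -1.49 ± 1.28, and -0.88 ± 0.33 with the block (edgeR adjusted p of 1.00 and 0.702). Of the 9 genes, 0 passed the adjusted threshold, where 0% of all genes did. At the unadjusted p, 1 of 9 (*FOS*) passed in each fit, against 1.37% of all genes without and 1.52% with the block. DESeq2 called 0 genes. Without pig 11 the *FOS* value was 1.84 and, with the block, 1.83, without pig 14 it was 3.32 and 2.87, and without sham pig 5 it was 4.24. Without the block *FOS* lost the unadjusted call without pig 11 and without sham pig 4, 12 or 13 (2.50 to 3.03), and *FOSB* (4.95) and *EGR1* (2.02) gained it without sham pig 5. In the sham libraries left there, *FOSB* had 2 to 21 estimated counts. *FOS* also lost the unadjusted call with 1 factor of unwanted variation (2.16 ± 1.29) and with sex as a covariate (2.46 ± 1.33). In the same comparison fibroblast markers were positive in 8 of 8 (median 0.96, and 0.70 with the block, with 3 and 0 at the unadjusted p) and leucocyte markers in 8 of 9 (0.39 and 0.40). Mesothelial markers were positive in 2 of 2 (1.18 and 1.11) and cardiomyocyte markers in 0 of 9 (-0.17 and -0.19). The part of these cell types in the *FOS* value was not tested.

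Differences past the adjusted threshold lay between animals of the same surgery group. An F test over 6 contrasts between pigs, with the zones of a pig as its 2 samples and the spread between zones as the error, found 8 of 9 genes past an adjusted p of 0.05, where 34.1% of 14278 genes passed. The edgeR adjusted p was 0.000181 for *ATF3*, 0.000232 for *NR4A1*, 0.00388 for *MYC*, 0.00626 for *NR4A3*, 0.0110 for *JUN*, 0.0155 for *KLF4*, 0.0186 for *FOSB* and 0.0364 for *FOS*. *EGR1* did not pass, at 0.0525. *ATF3* was at 5.35 times the median of the other 3 IR pigs in the scar zone of pig 11 and 7.78 times in its border zone, and at 7.52 and 3.89 times that of the other 3 sham pigs in the zones of pig 5. *NR4A3* was at 10.1 and 6.37 times the median of the other 3 in the scar and border zone of pig 5, and *NR4A1* at 6.83 and 3.79 times. *FOS* was at 20.9 times in the scar zone of pig 11 but 3.16 times in its border zone, and at 5.74 and 0.998 times in the zones of pig 5. These calls rest in part on single animals. Without IR pig 11, 5 of 9 genes passed, where 27.9% of all genes did, and *FOS*, *FOSB* and *MYC* no longer did (edgeR adjusted p of 0.240, 0.0707 and 0.0882). Without sham pig 5, *JUN* and *NR4A3* no longer passed (edgeR adjusted p of 0.547 and 0.0909), and *EGR1* did, at 0.0364, where 23.7% of all genes passed. *FOS* also lost the call without sham pig 4 or IR pig 14 (edgeR adjusted p of 0.0569 and 0.0586), and *EGR1* gained it without IR pig 9 (0.0432). Without both pig 11 and sham pig 5, a choice made after seeing the data, 2 of 9 passed (*ATF3* and *NR4A1*), where 14.8% of all genes did.

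How far both zones of a pig moved together differed among the genes. The share of the variance around the group means that lay between pigs was 0.917 for *ATF3*, 0.908 for *NR4A1*, 0.872 for *MYC*, 0.704 for *NR4A3*, 0.699 for *JUN* and 0.654 for *KLF4*, above the median of 0.533 over all genes tested. It was 0.405 for *FOS*, 0.372 for *EGR1* and 0.367 for *FOSB*, below that median. For these last 3 genes most of the variance thus lay between the 2 zones of a pig. Without pig 14 the shares were 0.655 to 0.914 for the first 6 genes, 0.877 for *NR4A1* among them, and 0.393 to 0.433 for the last 3, on the same sides of a median of 0.545.

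**Figure D4:**
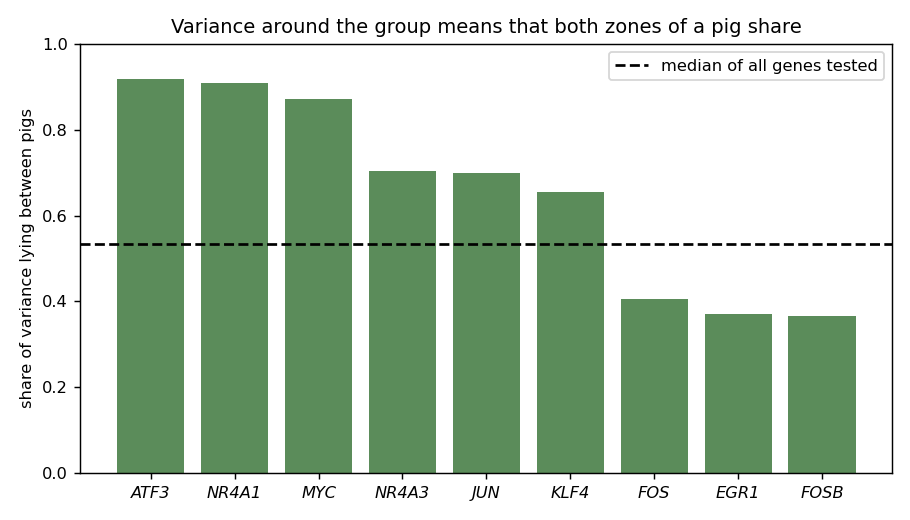
Share of the variance of log2 CPM around the 4 group means that lay between pigs (y, from 0 to 1) for 9 immediate-early genes (x), with the median of all genes tested as a dashed line at 0.533. *ATF3* (0.917), *NR4A1* (0.908) and *MYC* (0.872) have the highest shares, and *FOS*, *EGR1* and *FOSB* lie below the line.

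As one measure of the group, log2 CPM of the 9 genes was standardised over the 16 libraries and averaged. The mean was 1.60 SD units in the scar zone of IR pig 11 and 1.53 in that of sham pig 5, and 0.457 and 0.440 in their border zones. The next highest library was the scar zone of IR pig 14, at 0.431. Standardised without pig 14, the scar zones of pigs 11 and 5 were at 1.55 and 1.54. The correlation of a gene with the mean of the other 8 ranged from 0.357 for *JUN* and 0.457 for *NR4A3* to 0.823 for *ATF3* and 0.849 for *FOSB* (0.378, 0.468, 0.823 and 0.863 without pig 14), a description over 16 libraries of 8 pigs.

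**Figure D5:**
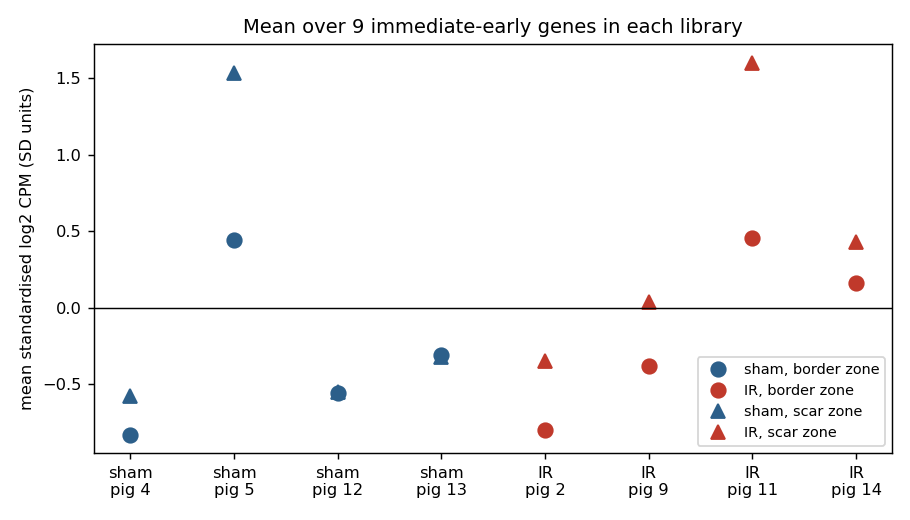
Mean standardised log2 CPM of 9 immediate-early genes (y, SD units) in each pig (x), with the border zone as circles, the scar zone as triangles, sham in blue and IR in red. The scar zone libraries of IR pig 11 (1.60) and sham pig 5 (1.53) stand above all others, and both surgery groups have libraries above and below 0.

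Of 12855 other genes listed by symbol, those whose log2 CPM was most like this mean included *BTG2* (r = 0.904), *CYR61* (0.871), *DCUN1D3* (0.842), *GRIP1* (0.819), *PI15* (0.814), *ZFP36* (0.810), *MAFF* (0.804), *RUSC2* (0.787) and *DUSP1* (0.781), where the median gene was at 0.018. These are correlations over 16 libraries that share pigs, and without pig 11 they were 0.701 to 0.914 and without pig 14 0.772 to 0.921. *BTG2*, an antiproliferative early response gene, ranged from 10.98 to 70.4 TPM, *ZFP36*, which speeds the decay of short-lived messages, from 16.0 to 94.1 TPM, and *DUSP1*, a phosphatase that switches off MAP kinases, from 17.7 to 83.6 TPM. In the scar zone the log2 fold change of IR over sham was 0.03 for *BTG2*, 0.09 for *CYR61*, 0.26 for *DCUN1D3*, 1.44 for *GRIP1*, 0.64 for *PI15*, 0.66 for *ZFP36*, 0.36 for *MAFF*, 0.10 for *RUSC2* and 0.44 for *DUSP1*.

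Other genes of the same response were taken from lists. In the scar zone, 0 genes of any list passed the edgeR adjusted threshold, and in the border zone 0 likewise. The counts at the unadjusted p that follow stand beside 3.35% of all genes tested in the scar zone. Of 19 tested effectors and secreted products, 17 had a positive scar zone log2 fold change (median 0.59), and 4 passed at the unadjusted p with a fold change of at least 2. They were *RGS1*, a brake on G protein signalling, at 1.84 ± 0.39, the cytokine *LIF* at 1.48 ± 0.49 and the monocyte attractant *CCL2* at 1.45 ± 0.53, each with an edgeR adjusted p of 0.438, and *PTGS2*, the inducible cyclooxygenase, named after its value was seen. Of 24 feedback inhibitors, 18 were positive (median 0.12) and 1 passed at the unadjusted p, *SOCS3*, an inhibitor of cytokine signalling, at 1.47 ± 0.55. Of 12 AP-1 partners 8 were positive (median 0.06) and 1 passed unadjusted, *BATF2* at 1.75 ± 0.68. In the border zone *BATF2* also passed unadjusted, at 2.02 ± 0.76, where 0.794% of all genes did and 5 of 12 AP-1 partners were positive. Of 17 other early factors 9 were positive in the scar zone (median 0.11) with 0 unadjusted, among them *CEBPB* at -0.59 ± 0.21 and *IRF1* at 0.74 ± 0.35. Of 12 upstream regulators, which include SRF and CREB family factors, 8 were positive (median 0.05), with *CREM* at 0.49 ± 0.21. Of 13 heat shock genes 10 were positive (median 0.08), and of 13 hypoxia-responsive genes 8 were positive (median 0.07), with 0 at the unadjusted p in both lists. Without pig 14, where 5.8% of all genes passed at the unadjusted p, 16 of 19 effectors were positive (median 0.66) and 5 passed, *CTGF* in addition, with *RGS1* at 1.98, *LIF* at 1.73 and *CCL2* at 1.73. In that fit 1 feedback inhibitor (*SOCS3*, at 1.74), 1 AP-1 partner (*BATF2*, at 1.97), 2 other early factors (*IER5* and *EGR2*) and 0 upstream regulators, heat shock or hypoxia-responsive genes passed, and 0 genes of any list passed the edgeR adjusted threshold. *CTGF*, *IER5*, *EGR2* and *S100A9* are named after their values were seen.

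The summed levels of effectors and feedback inhibitors peaked in the same animals as the summed level of the 10 genes. Effectors summed to 1107 to 2182 CPM in the IR scar zone and 914 to 1659 CPM in the sham scar zone, and feedback inhibitors to 832 to 1426 and 738 to 1224 CPM, with pig 11 highest among IR and pig 5 among sham pigs for both lists in both zones. Heat shock genes were highest in IR pig 2 among IR pigs in both zones, at 6585 and 7567 CPM, and among sham pigs in pig 5 in the scar zone (6226 CPM) and pig 4 in the border zone (6585 CPM). The 13 hypoxia-responsive genes summed to 722 to 824 CPM in the IR and 634 to 750 CPM in the sham scar zone, highest in pig 2 and pig 5. In the pig test, 10 of 19 effectors, 11 of 24 feedback inhibitors, 11 of 17 other early factors, 5 of 12 upstream regulators, 4 of 12 AP-1 partners, 8 of 13 heat shock and 5 of 13 hypoxia-responsive genes passed the edgeR adjusted threshold, where 34.1% of all genes did.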

How the data were processed

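The authors sequenced polyadenylated RNA as stranded libraries. They deposited estimated counts, which kallisto forms from reads divided among transcripts, and TPM, the same estimates scaled for length and depth, on an index of Ensembl pig cDNA. The submitters' processing notes name Trimmomatic 0.33, HISAT2 2.0.5 and kallisto 0.43.1, and the genome build is not given in the sources used here. Reads of near-identical genes are divided by estimate. Of 7534 Ensembl IDs, 889 received a symbol from a gene name table. No sequences are shown.

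The estimates were made whole by rounding and tested in R 4.3.3 with edgeR 4.0.16 (TMM, filterByExpr with minimum count 10 and minimum total count 15, quasi-likelihood test, Benjamini-Hochberg adjustment over all genes tested). Calls needed an adjusted p of at most 0.05 and, except in the F test between pigs, a fold change of at least 2, and unadjusted counts used the same fold. Log2 CPM used a prior count of 2. Groups, zones and pigs came from the sample labels, and the replicate number is the animal. Zones of a pig deviated together from their group means, with correlations of 0.354 to 0.692 over 14278 genes in the 8 pigs. Main zone fits had no block, as the methods state none.

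Alternatives were DESeq2 1.42.0, upper-quartile scaling, no low-count filter, limma 3.58.1 on log2(TPM + 1) and log2(TPM + 0.1) for genes of TPM 1 or more in at least 4 samples and without that filter, 1 factor of unwanted variation from 5000 control genes, sex as a covariate, 1 fit of all samples, the block, and each pig left out. Blocked fits without pig 11 or 14, and list counts, variance shares and means without pig 14, were added after seeing the data. The 10 genes and all lists were chosen with earlier results of these data known. Named genes are the 10, up to 4 per list with the smallest scar zone p, and the 10 most like their mean, of which 1 is not reported here. Beyond the lists in the report, marker lists gave 0 adjusted calls in IR against sham: in the scar zone 3 of 9 cardiomyocyte, 1 of 7 endothelial, 5 of 8 smooth muscle and pericyte, 1 of 3 adipocyte and 2 of 2 mesothelial markers tested had positive values. Only the smooth muscle marker *CNN1* passed at the unadjusted p, at 1.17 ± 0.43 in the scar and 1.85 ± 0.73 in the border zone. The shares of all genes were 3.35% and 0.794%.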

Additional observations from a re-analysis of the deposited data

Results flagged for a closer look

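In 14 of 37 groups of 4 libraries, 1 library lay far from the other 3 by Dixon's ratio, past its 95% critical value. Chance flags about 1 in 20 such groups of normal values, and over all genes tested in the same libraries 5.89% of groups were set apart. The groups share animals. In the scar zone of IR pig 11, *FOS* was at 367.24 CPM, *FOSB* at 33.549 CPM, *JUNB* at 4.5901 CPM, *EGR1* at 243.78 CPM and *KLF4* at 76.674 CPM. The *JUNB* value is set against 3 zeros that can be failed estimates, so it says nothing of the level in the other libraries. The border zone of the same pig was set apart for *FOS*, at 25.647 CPM. In the scar zone of sham pig 5, *FOS* was at 25.323 CPM, *FOSB* at 9.5768 CPM, *ATF3* at 411.89 CPM, *NR4A1* at 203.7 CPM and *NR4A3* at 146.97 CPM. Its border zone was set apart for *JUN*, at 362.35 CPM, and *NR4A1*, at 113.5 CPM. The border zone of sham pig 13 had the remaining value, *FOS* at 17.367 CPM.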

How the results depend on the processing

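None of the alternatives brought a member past the adjusted threshold in the comparisons of IR with sham or between zones. Of 978 recomputed values of the 9 genes tested, 900 kept their side of the threshold and, where they have one, their direction. Of the rest, 16 lost the call, 3 gained it and 59 changed sign, and the cause was not tested. Only the test between pigs, which has no direction, had member calls to lose. At the unadjusted p, 2 members passed in the scar zone, 3 between zones in IR pigs, 2 between zones in all 8 pigs and 1 for the difference of the IR effects. Between pigs, limma on log2(TPM + 1) called 5 members (18.7% of all genes), the fits without 1 pig each 5 to 9 (23.7% to 34.6%), and the fit without pigs 11 and 5 called 2 (14.8%). Without the low-count filter 10 passed (25.1%), *EGR1* and *JUNB* included, although *JUNB* was above 0 in 1 library. Over the whole table that limma fit called 2363 genes against 4867, and the fit without both pigs 2111. Where edgeR called 0 genes, DESeq2 called 52 in the scar zone, 2 in the border zone, and 4 and 1 between zones in IR and sham pigs. Limma with a pseudocount of 1 called 3 in the scar zone and 2 and 1 between these zones, and the block over all 8 pigs called 2.

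Sign changes in the scar zone were 0.19 (*ATF3*) and 0.24 (*NR4A1*) with limma at a pseudocount of 1, filtered or not, 0.20 and 0.26 at 0.1, and 0.0345 for *NR4A1* with sex as a covariate. For *KLF4* in the border zone limma gave 0.0155 with a pseudocount of 1, filtered or not, and 0.0191 with 0.1. Between zones in IR pigs limma with these pseudocounts gave 0.25 and 0.26 for *ATF3*, and 0.0037 and 0.0253 for *NR4A3*. The pairing of zones by pig (replicate block) gave 0.10 for *ATF3* in IR pigs and -0.23 for *FOS* in sham pigs, and changed no adjusted call of a member. The block without pig 14 gave 0.0469 for *ATF3* in IR pigs. The block without pig 11 gave -0.0863 for *JUN*, 0.32 for *ATF3*, -0.15 for *NR4A1* and 0.036 for *NR4A3*. For *FOS* in sham pigs limma gave -0.14 and -0.21, 1 factor of unwanted variation -0.0879 and sex as a covariate -0.0291. For *MYC* in the difference of the IR effects limma gave 0.0831 with a pseudocount of 1, filtered or not, and 0.0823 with 0.1.

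Without 1 pig each, scar zone ranges were -0.57 to 5.30 for *FOSB*, -0.94 to 1.06 for *ATF3*, -0.73 to 0.92 for *NR4A1*, -1.41 to 0.72 for *NR4A3*, -0.11 to 0.31 for *MYC* and -0.026 to 0.51 for *KLF4*. In the border zone they were 0.09 to 2.00 for *ATF3*, -0.29 to 0.84 for *FOS*, -0.31 to 0.93 for *NR4A1*, -0.31 to 1.08 for *NR4A3*, -0.0572 to 0.39 for *MYC* and -0.16 to 0.12 for *KLF4*. Between zones they were -0.0797 to 0.23 for *JUN*, -0.38 to 0.25 for *ATF3*, -0.14 to 0.13 for *NR4A1* and -0.48 to 0.36 for *NR4A3* in IR pigs, and -1.06 to 0.71 for *FOS* and -0.30 to 0.56 for *EGR1* in sham pigs. For the difference of the IR effects they were -0.0197 to 4.95 for *FOSB* and -0.20 to 0.0399 for *MYC*. *FOSB* was measured with 2 to 1121 counts, which limits its values.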
